A study of Mus musculus with 12 samples.

Results

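The genes described are the nuclear-encoded parts of the mitochondrial respiratory chain, 90 of the 43472 features in the deposited table. They were chosen by name: symbols beginning Nduf followed by a, b, c, s or v, the genes Sdha to Sdhd, symbols beginning Uqcr or Atp5, and Cox symbols numbered 4 to 8 and followed by a, b or c, without 3 features named as pseudogenes. By complex, 43 belong to complex I, 4 to complex II, 8 to complex III, 18 to complex IV and 17 to complex V. The rule follows names rather than proteins. It took in 9 factors that are no structural subunits (Ndufaf1 to Ndufaf7, Atp5s and Atp5sl), and Ndufa4 and its relative Ndufa4l2, named for complex I, were placed with complex IV, where the NDUFA4 protein is found. It left out Cyc1, Cox4i1 and Cox4i2, whose symbols do not match, and these are given further on.

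The embryos were of the mouse stock CD1. Zygotes had received either a negative control siRNA or an siRNA against Tdgf1, the gene of the Nodal co-receptor Cripto, each with GFP mRNA as a mark of injection, so the control embryos were injected too. Whole embryos were taken as morulae, early blastocysts or late blastocysts, which gave 6 groups of 2 libraries each, numbered 1 and 2. No uninjected embryos, embryo numbers or ages in days are given in the labels. Nothing says that the 2 libraries of a group came from separate embryos or injections, so what the p-values weigh is the spread of these libraries and may be technical. Whenever 4 values of a stage are listed, they stand in the order control 1, control 2, Tdgf1 siRNA 1, Tdgf1 siRNA 2.

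The respiratory chain passes electrons from NADH (complex I) and succinate (complex II) through ubiquinone, complex III and cytochrome c to oxygen at complex IV, and ATP synthase (complex V) uses the proton gradient that results. Its subunits come from the nuclear and the mitochondrial genome, except those of complex II, which are all nuclear. In the mouse, the blastocyst is the stage at which the cavity forms by ion pumping, and respiration is known to rise between cleavage and the blastocyst.

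Levels are CPM, a gene's reads scaled to a common library total, and are compared between genes only after division by transcript length. A change is a difference of log2(value + 1) in the deposited unit of 3.58 CPM, which understates the change of low genes. It was called at an adjusted p under 0.05 in limma, over the 10751 features whose mean reached 1 such unit. Of the 90 genes, 85 passed that filter, with 30 to 26060 reads per library. Libraries held 10524640 to 13770264 reads. Tdgf1 itself stood at 23.4 and 29.4 CPM in control morulae and 10.98 and 15.5 with its siRNA, at 13.1 and 21.7 against 9.27 and 15.2 CPM at early blastocyst, and at 84.6 and 97.3 against 49.5 and 70.8 CPM at late blastocyst. It was lower in 5 of 6 same-numbered pairs, and the library labelled Tdgf1 siRNA 2 of early blastocyst was above its control (15.2 against 13.1 CPM). On the first principal component, which held 70.8% of the variance and ran from morula to late blastocyst, the early blastocyst libraries numbered 2 (-20.2 and -15.9) lay nearer to morula than those numbered 1 (6.01 and 1.2), and the library labelled late blastocyst Tdgf1 siRNA 1 stood at 46.9 against 56.5 to 60.5 for the other 3. All 13 mitochondrially encoded genes are listed at 0 in every library, so the mitochondrially encoded subunits were not analysed here. Of a list of 6 cumulus and granulosa cell genes only Amhr2 passed the filter (means of 17.6, 17.0 and 5.13 CPM at the 3 stages in turn), and the list summed to 13.4 to 23.2 CPM in morula libraries and 3.67 to 6.89 CPM in late blastocysts. Of 5 blood genes 0 passed, and their sum was at most 3.97 CPM in a library.

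Respiratory chain RNA stood higher at each later stage. Summed over the 90 genes, the libraries stood at 14656, 14919.8, 14584 and 15062 CPM at morula, 19448, 17580.3, 18822 and 18232 CPM at early blastocyst and 27639, 29785, 24750.4 and 27239 CPM at late blastocyst. The stages did not overlap. The means were 14806 ± 224, 18521 ± 799.7 and 27353 ± 2064 CPM (SD, n = 4), that is 1.48%, 1.85% and 2.74% of all reads. In whole embryos, a change in the number of cells of a type and a change in RNA per cell cannot be told apart. Lists of lineage genes moved with the stages as well. The 4 trophectoderm genes (Cdx2, Gata3, Krt8 and Krt18) were all called higher at late blastocyst than at morula, and their sum ran over 368 to 615 CPM in morula libraries, 1529 to 3514 CPM in early blastocysts and 5011 to 7274 CPM in late blastocysts. The 3 primitive endoderm genes (Sox17, Gata4 and Pdgfra) summed to 4.56 to 14.2, 19.2 to 32.7 and 82.6 to 134 CPM, and the 3 epiblast genes (Nanog, Sox2 and Pou5f1) to 582 to 824, 719 to 832 and 205 to 274 CPM. Over the whole span Nanog and Pou5f1 fell (-2.01 and -0.97) and Sox2 rose (1.29, adjusted p = 0.00189 in limma). The part of cell composition in the results that follow was not tested.

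From morula to late blastocyst, 74 of the 85 genes rose and 2 fell (Cox7a1 and Ndufaf3), against 36.6% of all features called higher and 24.3% called lower. The median change was 0.85 for these genes and 0.13 for all features. The early and late steps were unequal. From morula to early blastocyst 35 rose and Cox6c fell (19.7% and 14.0% of all features), with a median of 0.22 against 0.05. From early to late blastocyst 66 rose and Ndufaf3 fell (27.0% and 17.7%), with a median of 0.52 against 0.09. At the first step 4 libraries stood clear above 4 for 41 genes and clear below for 4, Cox6c, Cox7a2l, Cox7c and Uqcrb (19.7% and 14.1% of all features). At the second step this held for 63 genes and for Ndufaf3 (25.7% and 17.9%). Over the whole span 72 genes had every late blastocyst library above every morula library and Cox7a1 and Ndufaf3 had every one below (35.3% and 23.5% of all features). Means rose at each step for 62 of the 85 (34.4% of all features).

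The scaling of the libraries moves these counts. TMM factors lowered the median of all features by 0.12 between morula and late blastocyst and left 65 genes called higher and 3 lower, and quantile normalization lowered it by 0.20 and left 72 and 3. Among all features called over that span, 60.03% were higher as deposited, 51.3% with TMM and 46.6% with quantile normalization. For the first step these shares were 58.4%, 52.8% and 50.7%, and for the second 60.4%, 51.8% and 46.8%. Without both early blastocyst libraries numbered 1 the first step gave 27 genes higher and 0 lower, and without both numbered 2 it gave 34 and 0. Both fits had fewer libraries. The counts in these fits, and those with TMM and quantile normalization, are given without the shares of all features called in them.

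**Figure D1:**
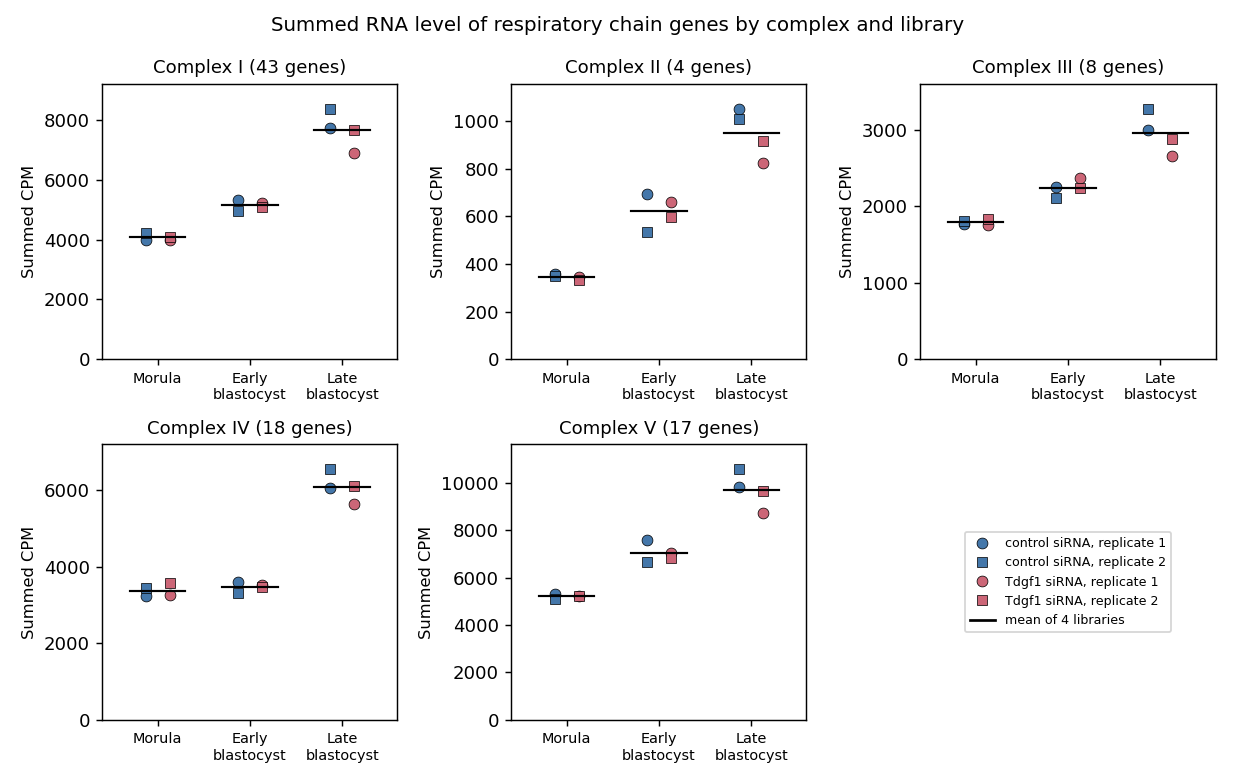
Summed level in CPM (y axis, linear from 0) of the genes of each complex in each of the 12 libraries, by stage (x axis); blue is control siRNA, red is Tdgf1 siRNA, circles are replicate 1 and squares replicate 2, and bars are means of 4 libraries. Complexes I, II, III and V step up at each stage, while complex IV stays at 3373 and 3482 CPM at morula and early blastocyst and stands at 6091 CPM at late blastocyst.

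The stage changes were seen in libraries of either siRNA. In control embryos alone 67 genes rose and 2 fell between morula and late blastocyst (28.9% and 19.3% of all features), and in Tdgf1 siRNA embryos alone 65 rose and 0 fell (27.2% and 16.6%). These are separate libraries. The direction was the same in 84 of 85 genes, against 89.6% of all features, and 62 were called in both. At the first step 24 genes rose and 0 fell in control embryos (9.52% and 6.32% of all features), and 22 and 0 in Tdgf1 siRNA embryos (8.8% and 6.62%). At the second step 57 and 0 did so in control embryos (16.5% and 11.2%), and 37 and 0 in Tdgf1 siRNA embryos (15% and 8.59%). Pearson's r between the changes in control and in Tdgf1 siRNA embryos was 0.95 across the 85 genes, which are not independent replicates and share the libraries they were read from.

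The 6 members with the NRF1 letters that rose most outside the subunit c genes give a view of the promoters of genes that moved together. NRF1 is a transcription factor known to act on many respiratory chain promoters, and its letters here are GCGCA, then any base, then GCGC, on either strand. The windows are the 250 bases before the annotated start in RefSeq (GRCm38.p6), whose table matched 73 of the 90 genes by symbol. The capitals mark the letters, and up to 15 bases stand on each side. Where a window holds the letters more than once, only the run nearest to the start is shown. The windows of Sdha and Ndufb4 hold 3 runs each and that of Cox6a1 holds 2. Atp5c1 also has a window without the letters.
Sdhd: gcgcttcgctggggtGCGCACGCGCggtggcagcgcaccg
Sdha: cccgcgcgactcggtGCGCAAGCGC
Ndufa8: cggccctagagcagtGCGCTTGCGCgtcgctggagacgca
Cox6a1: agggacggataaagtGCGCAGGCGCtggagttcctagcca
Atp5c1: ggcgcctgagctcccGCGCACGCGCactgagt
Ndufb4: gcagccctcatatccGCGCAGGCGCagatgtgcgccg
These lie on GRCm38.p6, all on the minus strand: Sdhd at chr9:50603904-50603943, Sdha at chr13:74350241-74350265, Ndufa8 at chr2:36049344-36049383, Cox6a1 at chr5:115349051-115349090, Atp5c1 at chr2:10080433-10080464 and Ndufb4 at chr16:37654369-37654405.
The letters were found in 14 of 73 genes (19.2%), against 3.74% of all 32851 windows and 10.5% of the 7830 tested genes that have a window. The GABPA letters CCGGAAG were in 13 genes (17.8%), against 6.91% of all windows and 18.0% of tested genes, and the YY1 letters AAGATGGC in 1 gene (1.37%), against 1.57% and 2.66%. Among members tested, the median change from morula to late blastocyst was 0.97 for the 14 of 71 with the NRF1 letters and 0.85 for the others. Over all tested genes it was 0.05 with the letters and 0.16 without. No 1 of these runs contains another, and a match is a run of letters and not a binding site.

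**Figure D2:**
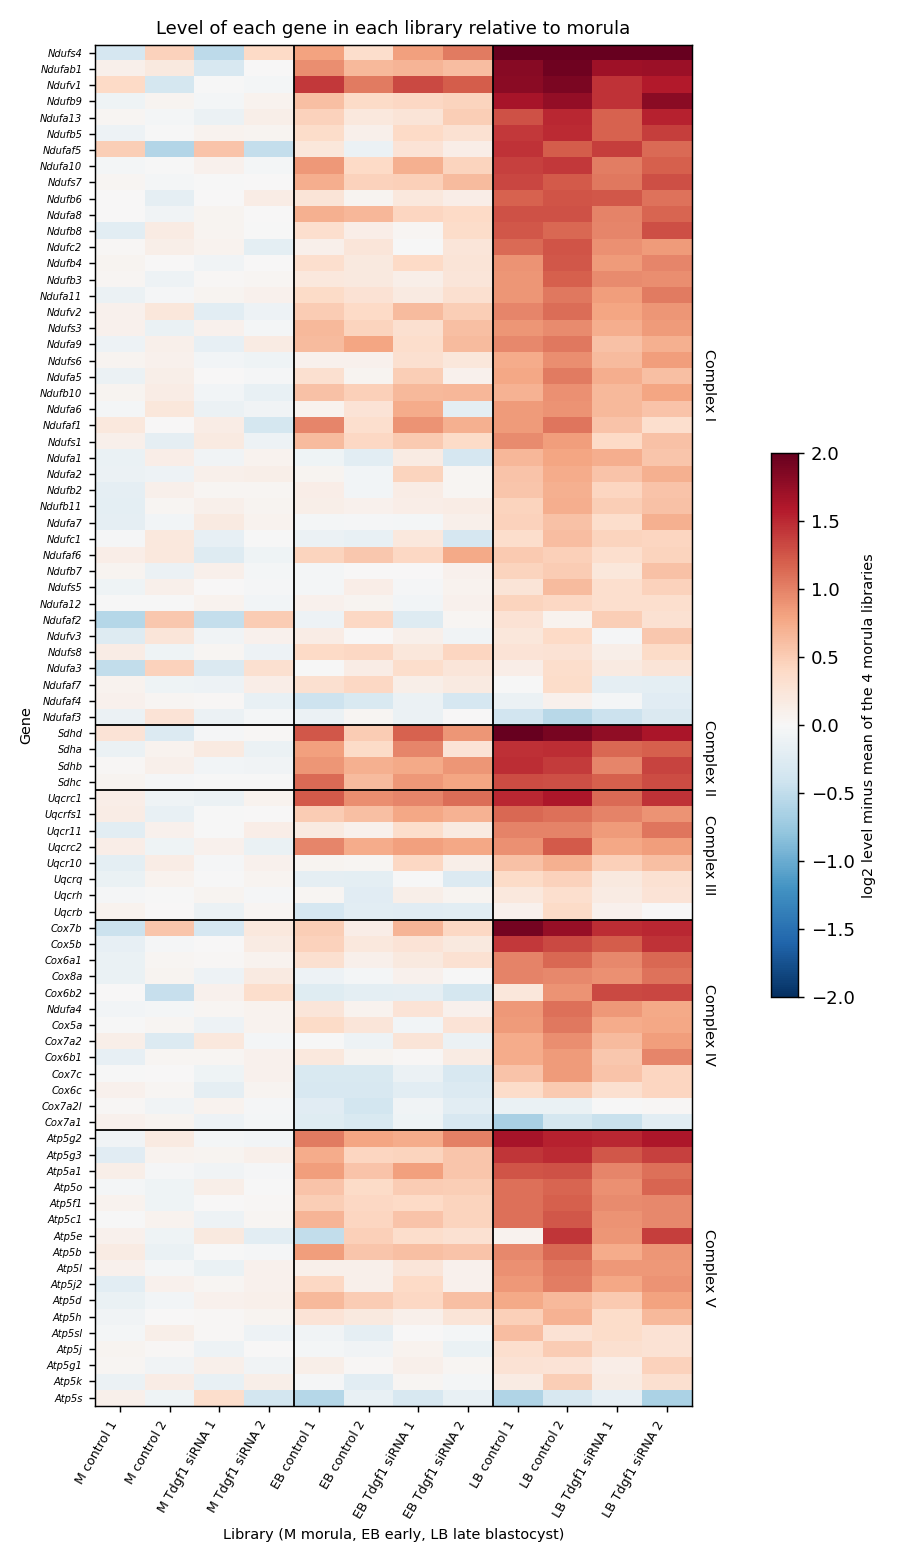
Level of 84 of the 85 genes above the filter (rows, grouped by complex and ordered by change) in each of the 12 libraries (columns), as log2(value + 1) in the deposited unit minus the mean of the 4 morula libraries; red is higher and blue lower, and the colours end at 2 in each direction. Most rows turn red at early blastocyst or only at late blastocyst, and Cox7a1, Ndufaf3 and Atp5s are blue at late blastocyst.

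Complex I, the NADH dehydrogenase, stood at 4078 ± 114, 5142 ± 162 and 7665 ± 600.4 summed CPM at the 3 stages (SD, n = 4). All 7 nuclear genes of its catalytic core rose at the first step (median 0.51), where 19.7% of all features did. So did 10 of 29 accessory genes (median 0.19) and 2 of 7 assembly factors. Of the 12 fits that left out 1 library, the accessory calls of Ndufa11, Ndufa13, Ndufb5 and Ndufs4 stood in 3, 5, 1 and 9. TMM, quantile normalization, edgeR and DESeq2 ended those of Ndufa11, Ndufa13 and Ndufb5. At the second step 5 of 7 core, 25 of 29 accessory and 1 of 7 assembly genes rose, and Ndufaf3 fell (27.0% and 17.7% of all features). Ndufv1, which holds the flavin that takes electrons from NADH, had the largest first-step change of the 85. It stood at 72.5, 41.7, 53.6 and 52.4 CPM at morula, at 151, 115, 139.7 and 130.2 CPM at early blastocyst and at 199, 209, 154 and 169 CPM at late blastocyst. The 3 stages did not overlap, and at late blastocyst the Tdgf1 siRNA libraries were the lower ones. Its change was 1.25 (SE 0.15, adjusted p = 7.23e-05) at the first step and 0.43 (SE 0.15, adjusted p = 0.0312) at the second. The second call was lost without control 2 or Tdgf1 siRNA 2 of early blastocyst or any 1 of the late blastocyst libraries, with adjusted p from 0.053 to 0.119, and with TMM scaling. The gene spans chr19:4007384-4012806 on the minus strand of GRCm38.

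Of the other core genes described, Ndufs7, which carries the iron-sulphur cluster nearest to ubiquinone, rose at the first step by 0.58 (SE 0.10, adjusted p = 0.00106), and the iron-sulphur subunit Ndufv2 by 0.51 (SE 0.10, adjusted p = 0.00154). Ndufs1 and Ndufs3 changed by 0.49 and 0.50. Ndufs8 had the smallest change (0.37, SE 0.11, adjusted p = 0.0172), lost without Tdgf1 siRNA early blastocyst 2, control morula 2 or Tdgf1 siRNA morula 2 (adjusted p from 0.0527 to 0.0674), and was not called at the second step (-0.10, SE 0.11, adjusted p = 0.474).

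Among the accessory genes of complex I, Ndufs4, needed for a stable NADH-binding module, had the largest rise of the complex. It stood at 24.2, 44.5, 20.9 and 42.8 CPM at morula, 57.4, 41.2, 58.3 and 68.7 CPM at early blastocyst and 149, 167, 149 and 147 CPM at late blastocyst. Morula and early blastocyst overlapped, and late blastocyst stood clear of both. The change over the whole span was 2.16 (SE 0.21, adjusted p = 1.27e-06). The gene spans chr13:114287795-114388258 on the minus strand of GRCm38. Ndufab1, the mitochondrial acyl carrier protein, rose by 1.79 (SE 0.11, adjusted p = 3.51e-08). The highest levels per kb of transcript in complex I were those of the accessory genes Ndufa6 and Ndufs5, at 382 and 373 CPM per kb over all libraries, with whole-span changes of 0.74 (SE 0.16, adjusted p = 0.00145) and 0.42 (SE 0.11, adjusted p = 0.0047). With TMM scaling the change of Ndufs5 was 0.28 and no longer called (adjusted p = 0.0666).

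Of the 7 assembly factors of complex I, 3 were called higher and 1 lower over the whole span, where 36.6% and 24.3% of all features were. Ndufaf3, which acts in building the quinone-reducing module, stood at 55.3, 73.6, 55.4 and 58.9 CPM at morula, 55.6, 62.3, 55.4 and 61.0 CPM at early blastocyst and 45.7, 40.1, 43.9 and 48.8 CPM at late blastocyst. Its late blastocyst libraries lay below all others. It fell over the whole span (-0.41, SE 0.13, adjusted p = 0.0126), a call lost without control morula 2 (adjusted p = 0.064) or control late blastocyst 2 (adjusted p = 0.0512). Ndufaf5 rose by 1.29 (SE 0.26, adjusted p = 0.000671), Ndufaf1 by 0.71 (SE 0.17, adjusted p = 0.00313) and Ndufaf6 by 0.44 (SE 0.14, adjusted p = 0.0126). The call of Ndufaf6 was lost with TMM and quantile normalization. Ndufaf2, Ndufaf4 and Ndufaf7 were at 0.29, -0.07 and 0.00, not called.

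Complex II, succinate dehydrogenase, which is also an enzyme of the citric acid cycle, had the largest ratio of summed CPM between late blastocyst and morula among the 5 complexes, 2.74-fold against 1.65 to 1.88-fold for the others. The sum was 347 ± 10.9, 621 ± 71.4 and 951 ± 102 CPM at the 3 stages (SD, n = 4). All 4 genes rose at both steps (19.7% of all features at the first and 27.0% at the second), and in each of them the 3 stages did not overlap. Sdhd, a membrane anchor, stood at 77.5, 52.0, 62.4 and 65.1 CPM at morula, 155, 92.4, 149 and 121 CPM at early blastocyst and 269, 248, 226 and 205 CPM at late blastocyst. The early blastocyst libraries numbered 2 were the lower ones in each siRNA. Its change was 0.96 (SE 0.16, adjusted p = 0.000706) at the first step and 0.87 (SE 0.16, adjusted p = 0.000775) at the second. The gene spans chr9:50596357-50603812 on the minus strand of GRCm38.

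Sdhb, the iron-sulphur subunit, was the most abundant of the 4 per kb (257 CPM per kb) and stood at 171, 178, 161 and 159 CPM at morula, 309.7, 276, 285 and 309.8 CPM at early blastocyst and 468, 445, 331 and 430.2 CPM at late blastocyst. The late blastocyst library Tdgf1 siRNA 1 was the lowest of its stage. The whole-span change of Sdhb was 1.30 (SE 0.11, adjusted p = 2.97e-07), that of Sdha, the flavoprotein, 1.32 (SE 0.15, adjusted p = 6.61e-06), and that of the anchor Sdhc 1.27 (SE 0.12, adjusted p = 1.3e-06). The second-step call of Sdhc (0.42, SE 0.12, adjusted p = 0.014) was lost without control early blastocyst 2 or Tdgf1 siRNA late blastocyst 2 (adjusted p from 0.0514 to 0.0745).

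In complex III, the cytochrome bc1 complex, the summed level was 1789 ± 39.1, 2238 ± 109 and 2950.3 ± 257 CPM at the 3 stages (SD, n = 4). At the first step both core proteins (Uqcrc1 and Uqcrc2) and the Rieske iron-sulphur protein (Uqcrfs1) rose, and 0 of the 5 small accessory genes did. At unadjusted p under 0.05 in limma 1 of the 5 passed, counted in either direction, with changes from -0.24 to 0.20. Of all features 19.7% were called higher at the first step. At the second step 4 of the 5 small genes rose (27.0% of all features). Uqcrc1 stood at 258, 223, 218 and 248 CPM at morula, 555, 454, 468 and 518 CPM at early blastocyst and 677, 731, 523 and 649.5 CPM at late blastocyst. Early and late blastocyst overlapped, both clear of morula. It rose by 1.06 (SE 0.11, adjusted p = 3.46e-05) at the first step and by 0.36 (SE 0.11, adjusted p = 0.019) at the second, a call lost without control early blastocyst 2, control late blastocyst 2 or Tdgf1 siRNA late blastocyst 2 (adjusted p from 0.0647 to 0.09) and with TMM scaling. The gene spans chr9:108936633-108949623 on the plus strand of GRCm38. Uqcrc2 rose by 0.83 (SE 0.11, adjusted p = 0.000162) at the first step and was not called at the second (0.11). The small genes had the highest levels per kb, 959.5 CPM per kb for Uqcr10 and 671 for Uqcrq, with whole-span changes of 0.60 (SE 0.11, adjusted p = 0.000355) and 0.34 (SE 0.10, adjusted p = 0.0101). With TMM scaling Uqcrq was at 0.19 and no longer called (adjusted p = 0.114).

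**Figure D3:**
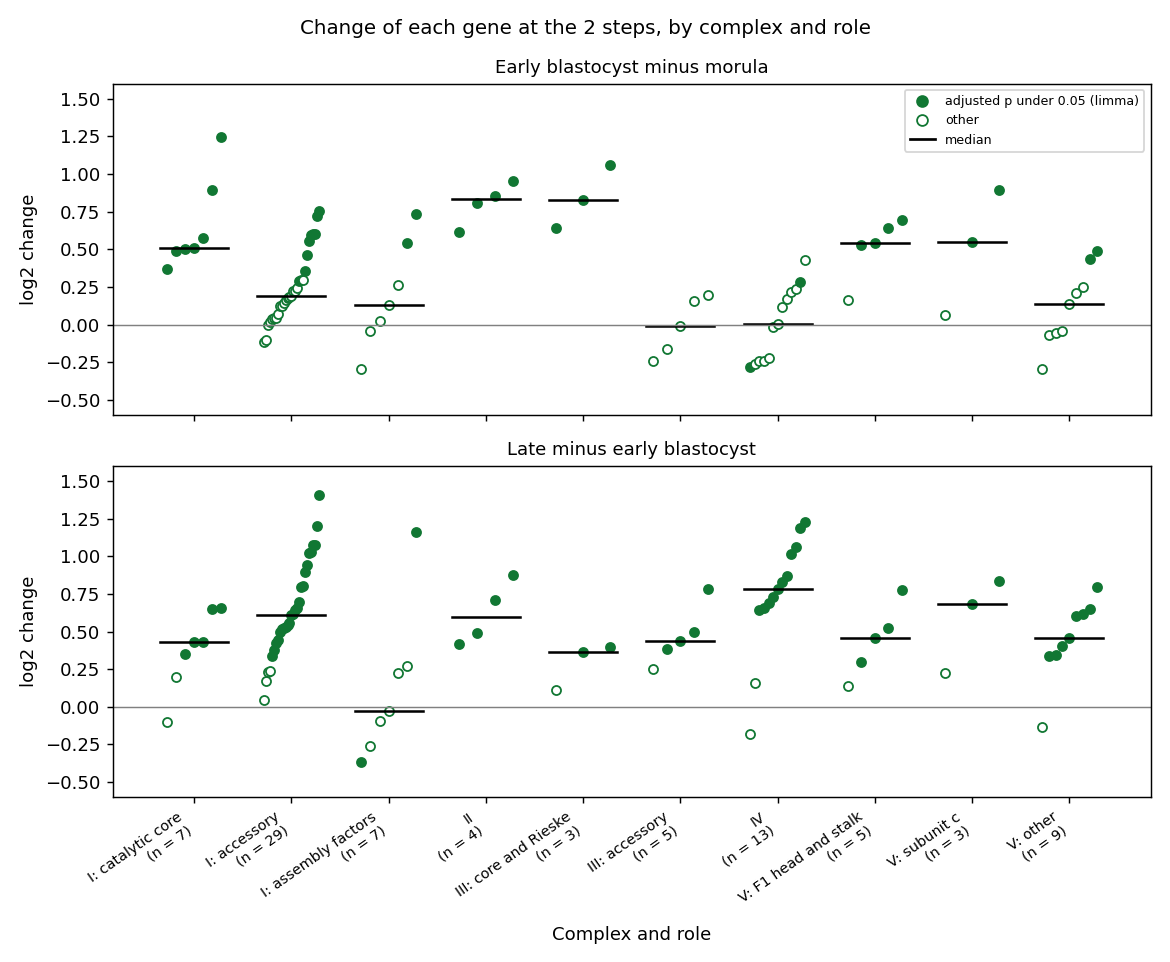
Log2 change of each of the 85 genes (points) from morula to early blastocyst (top) and from early to late blastocyst (bottom), by complex and role (x axis, with the number of genes); filled points have an adjusted p under 0.05 in limma and bars are medians. Core genes of complexes I and III, all of complex II and 4 of 5 head and stalk genes of complex V are raised with filled points in the top panel, and complex IV and the accessory genes are raised mainly in the bottom panel.

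In complex IV, cytochrome c oxidase, 11 of the 13 tested genes rose at the second step and 1 at the first (27.0% and 19.7% of all features). Its summed level was 3373 ± 156, 3482 ± 119 and 6091 ± 369.6 CPM at the 3 stages (SD, n = 4). At the first step the median change of its 13 tested genes was 0.00, with 1 gene higher (Cox5b, 0.28, adjusted p = 0.0496) and 1 lower (Cox6c, -0.28, adjusted p = 0.0359). The call of Cox5b was kept only without control early blastocyst 2 among the 12 fits that left out 1 library (adjusted p from 0.0544 to 0.177 in the others). TMM, quantile normalization, edgeR and DESeq2 ended it. Beside Cox6c, TMM, edgeR and DESeq2 also called Cox7a2l and Cox7c lower at the first step. Quantile normalization called only Cox6c of this complex lower. Cox6c, a small membrane subunit, stood at 529, 514, 443 and 520.0 CPM at morula, 398, 398, 431 and 414 CPM at early blastocyst and 643, 720.3, 629 and 672 CPM at late blastocyst. Its early blastocyst libraries all lay below the morula ones and its late blastocyst libraries above both. Its first-step call was lost without control 1, control 2 or Tdgf1 siRNA 2 of either stage (adjusted p from 0.0674 to 0.142), and it rose at the second step (0.69, SE 0.10, adjusted p = 9.32e-05). Of the 11 genes that rose at the second step (median of the 13 genes 0.78), Cox5b had also risen at the first step and Cox6c had fallen there, and the other 9 were called at the second step alone. All 9 common nuclear subunits were among the 11, with changes from 0.64 (Cox5a) to 1.22 (Cox7b). Without both early blastocyst libraries numbered 1 or both numbered 2, Cox6c was not called at the first step.

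Cox8a, a small membrane subunit, shows the late rise. It stood at 371, 422, 382 and 463 CPM at morula, 379.6, 395, 433 and 405 CPM at early blastocyst and 817, 801, 774 and 873 CPM at late blastocyst. Morula and early blastocyst overlapped, and each late blastocyst library was above all of them. The changes were -0.02 (SE 0.10, adjusted p = 0.906) and 1.01 (SE 0.10, adjusted p = 7.32e-06). The gene spans chr19:7215153-7217616 on the minus strand of GRCm38. Cox7b had the largest rise of the complex over the whole span (1.66, SE 0.19, adjusted p = 5.48e-06), from 107, 217, 116 and 169.5 CPM at morula to 558, 496, 412 and 421 CPM at late blastocyst. Its morula libraries differed by replicate number, those numbered 2 being the higher. Per kb, Cox5a, a matrix-side subunit, was the most abundant of all 88 genes with a length, at 1166 CPM per kb, and rose by 0.85 (SE 0.11, adjusted p = 1.24e-05).

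Complex IV has subunits with tissue-restricted copies, and these were low. Cox8b had 0 reads in all 12 libraries, under the 0.218 to 0.285 CPM that a count of 0 allows (3 reads, for counting error only). Cox6a2 had at most 20 reads in a library, Cox8c at most 3, Ndufa4l2 at most 9 and Cox7b2 7 to 96, and these 5 made up the genes under the filter. Of the copies that passed, the muscle form Cox7a1 stood at 12.9, 12.4, 10.8 and 11.4 CPM at morula and 6.23, 8.48, 7.77 and 9.71 CPM at late blastocyst. It fell by 0.42 (SE 0.16, adjusted p = 0.0323) while the common form Cox7a2 rose (0.79, SE 0.12, adjusted p = 0.0001). The call of Cox7a1 was lost in 6 of the 12 fits that left out 1 library, those without control morula 1, control morula 2, Tdgf1 siRNA morula 1, Tdgf1 siRNA morula 2, control late blastocyst 1 or Tdgf1 siRNA late blastocyst 1, with adjusted p from 0.0584 to 0.122. Cox7a2l, which links complexes III and IV, was not called (-0.06), although DESeq2 called it lower (-0.22, adjusted p = 0.0493). The late blastocyst libraries all lay under the morula ones in Cox7a1. The testis form Cox6b2 rose from 5.60, 3.04, 6.04 and 8.05 CPM at morula to 7.06, 13.3, 19.0 and 19.4 CPM at late blastocyst (0.94, SE 0.19, adjusted p = 0.000626), with control late blastocyst 1 inside the morula range. Per kb it stood at 18.8 CPM, and its partner Cox6b1, which rose by 0.78 (SE 0.11, adjusted p = 4.86e-05), at 769.8 CPM. Cox6a1 rose by 1.06 (SE 0.10, adjusted p = 1.16e-06) and Ndufa4 by 0.90 (SE 0.10, adjusted p = 4.45e-06).

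Complex V, ATP synthase, stood at 5218 ± 90.2, 7038 ± 395 and 9696 ± 762 summed CPM at the 3 stages (SD, n = 4). At the first step 4 of the 5 genes of the F1 head and stalk rose (Atp5a1, Atp5b, Atp5c1 and Atp5d), together with 2 of the 4 peripheral stalk genes, 2 of the 3 subunit c genes and 0 of the 3 other membrane genes (0 at unadjusted p under 0.05 too). Of all features 19.7% were called higher at that step. At the second step 14 of 17 rose (27.0% of all features). Among these, the calls of Atp5e, Atp5h and Atp5k were lost in 4, 3 and 5 of the 12 fits that left out 1 library. TMM scaling ended these calls too, and quantile normalization kept them. Atp5b, the catalytic beta subunit, stood at 1015, 821, 898 and 890.2 CPM at morula, 1619, 1325, 1369 and 1349 CPM at early blastocyst and 1770.5, 2010.1, 1508 and 1676 CPM at late blastocyst. Only early and late blastocyst overlapped. It rose at the first step (0.64, SE 0.11, adjusted p = 0.000865), and its second-step call (0.30, SE 0.11, adjusted p = 0.0457) was lost with TMM scaling and in 9 of the 12 fits that left out 1 library, all but those without control morula 1, control morula 2 or control early blastocyst 1 (adjusted p from 0.057 to 0.173). Atp5a1, the alpha subunit, rose by 1.15 (SE 0.11, adjusted p = 8.93e-07) over the whole span, and the stalk gene Atp5f1 by 1.05 (SE 0.09, adjusted p = 5.07e-07). Atp5s, a coupling factor that is no subunit, was at -0.43 and was not called, although TMM and quantile normalization called it lower. Atp5o shares its name with 2 overlapping gene models, so its counts are uncertain.

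The proton-driven ring of complex V is built of subunit c, which Atp5g1, Atp5g2 and Atp5g3 all encode with the same mature protein. Their RNAs differ, and so do the 250 bases before their starts, shown because the 3 genes changed in unequal measure. Capitals mark the NRF1 letters, and no window holds the GABPA or YY1 letters.
Atp5g1: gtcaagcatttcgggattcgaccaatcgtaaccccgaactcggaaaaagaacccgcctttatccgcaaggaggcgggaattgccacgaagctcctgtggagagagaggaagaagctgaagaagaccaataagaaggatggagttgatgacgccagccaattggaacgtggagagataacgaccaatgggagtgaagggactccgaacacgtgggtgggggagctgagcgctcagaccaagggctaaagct
Atp5g2: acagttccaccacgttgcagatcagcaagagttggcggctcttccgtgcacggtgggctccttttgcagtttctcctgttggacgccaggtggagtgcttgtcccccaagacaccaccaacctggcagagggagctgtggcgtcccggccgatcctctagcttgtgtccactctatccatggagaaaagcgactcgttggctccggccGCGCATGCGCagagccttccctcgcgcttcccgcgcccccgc
Atp5g3: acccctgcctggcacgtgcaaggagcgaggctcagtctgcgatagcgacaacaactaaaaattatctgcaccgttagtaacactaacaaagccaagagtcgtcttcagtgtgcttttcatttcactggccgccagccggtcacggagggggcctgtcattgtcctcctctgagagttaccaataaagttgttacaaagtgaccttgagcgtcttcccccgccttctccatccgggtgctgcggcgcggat
These lie on GRCm38.p6, all on the minus strand: Atp5g1 at chr11:96075632-96075881, Atp5g2 at chr15:102671048-102671297 and Atp5g3 at chr2:73911327-73911576. They are 53.6, 62.8 and 54.0% G and C, in that order.
Atp5g1 stood at 610.2, 562, 639.5 and 564 CPM at morula, 644, 601, 635 and 606 CPM at early blastocyst and 727, 720.0, 649 and 822 CPM at late blastocyst. Atp5g3 stood at 312, 384, 378 and 391 CPM at morula, 614, 494, 498 and 539 CPM at early blastocyst and 989, 1032, 868 and 944 CPM at late blastocyst. Atp5g2 stood at 65.9, 79.1, 67.5 and 67.0 CPM at morula, 147, 123, 119.5 and 143 CPM at early blastocyst and 225, 210.2, 205 and 222 CPM at late blastocyst. The 3 stages did not overlap for Atp5g2 or Atp5g3, and for Atp5g1 morula and early blastocyst overlapped.

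Over the whole span Atp5g2 changed by 1.58 (SE 0.11, adjusted p = 9.86e-08), Atp5g3 by 1.38 (SE 0.11, adjusted p = 2.02e-07) and Atp5g1 by 0.29 (SE 0.10, adjusted p = 0.0257). The last call was lost with TMM scaling (0.15, adjusted p = 0.254), with edgeR (0.15) and DESeq2 (0.14), without a filter (adjusted p = 0.0502), and without control morula 2, Tdgf1 siRNA morula 2, control late blastocyst 1, control late blastocyst 2 or Tdgf1 siRNA late blastocyst 2 (0.21 to 0.30). Of the reads of the 3 genes, Atp5g1 held 54.8% to 61.7% in morula libraries, 45.9% to 50.7% in early blastocysts and 36.7% to 41.3% in late blastocysts. Atp5g3 went from 35.5% ± 3.01 at morula to 50.4% ± 2.13 at late blastocyst (SD, n = 4), and Atp5g2 from 6.79% ± 0.644 to 11.3% ± 0.52. The shares of Atp5g1 did not overlap between stages, and a share within a library does not move with its scaling. The annotated Atp5g1 transcripts run from 596 to 4715 nt, so the shares are of reads and not of molecules.

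**Figure D4:**
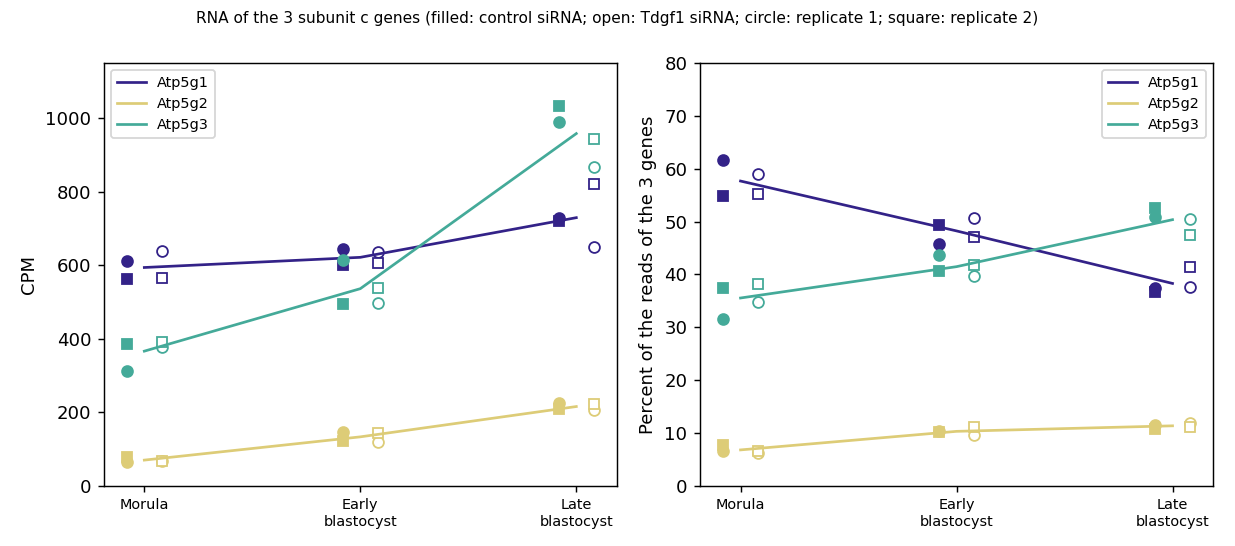
Level in CPM (left) and percent of the reads of the 3 genes (right) of Atp5g1, Atp5g2 and Atp5g3 in each of the 12 libraries by stage; filled symbols are control siRNA, open ones Tdgf1 siRNA, circles replicate 1, squares replicate 2, and lines join the means of 4 libraries. Atp5g3 passes Atp5g1 between early and late blastocyst.

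Transcript length moved with the order of the 2 steps. Of the 83 tested genes with a length, the 43 under 800 nt had a median first-step change of 0.14 and the 40 longer ones 0.54. At the second step the medians were 0.65 and 0.43. Over all 9489 tested features with a length the medians for the shorter and longer ones were 0.08 and 0.06 at the first step and 0.06 and 0.10 at the second. Spearman's rho of length with first-step change was 0.52 across these 83 genes and -0.23 across all 9489, and the part of length in the order of the complexes was not tested.

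Neighbouring genes of the pathway gave the following. A list of genes of the chain outside the naming rule had 7 that were tested, not all of them subunits of a complex. They were Cyc1 (cytochrome c1 of complex III), Cycs and Cyct (cytochrome c), Cox4i1 (complex IV), Usmg5, Atpif1 and 2010107E04Rik. All 7 rose over the whole span, where 36.6% of all features were called higher and 24.3% lower. Cyc1 rose by 1.62 (SE 0.10, adjusted p = 4.13e-08) and Cycs by 1.24 (SE 0.09, adjusted p = 1.42e-07). Cox4i2 lay under the filter, at most 0.794 CPM. Of 16 genes of the citric acid cycle and pyruvate dehydrogenase, 13 rose and 2 fell over the whole span (Pdha1 and Pdhb, both of pyruvate dehydrogenase), and at the first step 13 rose and 0 fell (median 0.55), against 19.7% higher and 14.0% lower of all features. The 2 largest were Idh3a, a subunit of isocitrate dehydrogenase (1.88, SE 0.13, adjusted p = 9.03e-08), and Suclg1, a subunit of succinyl-CoA ligase (1.58, SE 0.12, adjusted p = 1.28e-07).

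The assembly factors outside the rule were more mixed. Of 33 tested, 16 rose and 4 fell over the whole span (Uqcc1, Uqcc3, Cox19 and Coa7; all features 36.6% and 24.3%). At the first step 15 rose and Uqcc3 fell (all features 19.7% and 14.0%). At the second 4 rose (Nubpl, Ttc19, Cox15 and Cox20) and Coa7 fell (all features 27.0% and 17.7%). Lyrm7, which helps insert the Rieske protein into complex III, rose by 1.74 (SE 0.27, adjusted p = 7.54e-05), and Cox18, which inserts a complex IV subunit into the membrane, by 1.26 (SE 0.16, adjusted p = 1.19e-05). Over the whole span, with the same shares of all features, 6 of 10 carriers and pores rose and 3 fell (Tomm20, Tomm22 and Timm23, of the protein import machinery). Vdac2, an outer membrane channel, rose by 1.38 (SE 0.11, adjusted p = 2.64e-07), and Slc25a4, an ADP/ATP carrier, by 1.27 (SE 0.12, adjusted p = 8.07e-07). Of 14 regulators of mitochondrial genes, 2 rose (Ppargc1b and Polg) and 5 fell (Gabpa, Yy1, Pprc1, Tfb2m and Polrmt), where 36.6% of all features rose and 24.3% fell. Ppargc1b, a coactivator, rose by 1.08 (SE 0.24, adjusted p = 0.00147), and its relative Pprc1 fell (-0.98, SE 0.10, adjusted p = 2.88e-06). With TMM scaling the whole-span counts higher and lower were 5 and 0 for the list that holds Cyc1 and Cycs and 13 and 2 for the cycle. They were 13 and 6 for the assembly factors (3 and 6 at the second step), 5 and 3 for the carriers and pores and 2 and 7 for the regulators. The shares of all features called with TMM are not given beside these counts. Nrf1 had means of 59.8, 53.4 and 49.6 CPM at the 3 stages and Yy1, which fell, 183, 78.4 and 95.5 CPM.

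The Tdgf1 siRNA was compared with the control at each stage. With limma 0 of the 85 genes passed at morula, early blastocyst or late blastocyst, in the mean over stages, or in the test of an effect that differs between stages (0.0% of all features in each). Tdgf1 itself, which lay above the filter, was not called in any of these either, so a count of 0 does not show an absence of effect. At an unadjusted p under 0.05 there were 1, 0 and 3 at the 3 stages, 2 in the mean (Cox6b2 and Ndufab1) and 0 in the last test, against 1.80%, 1.04%, 2.06% and 2.49% of all features at the stages and in the mean. The gene at morula was Ndufv2, and those at late blastocyst were Cox6b2, Ndufs1 and Ndufa9. edgeR and DESeq2 also called 0 of the 85 in the 3 stage comparisons. Of all features edgeR called 0 at each stage, and DESeq2 called 0, 0 and 1 (0.0093% at late blastocyst). At an unadjusted p under 0.05 each tool gave 1, 0 and 3 of the 85. The shares of all features were 2.47%, 1.34% and 2.07% with edgeR and 2.66%, 1.44% and 2.07% with DESeq2. In limma with the replicate number as a block, 0 of the 85 passed at any stage or in the mean, where 5, 5 and 3 of all features passed at the 3 stages and 0 in the mean (0.0465%, 0.0465%, 0.0279% and 0.0%). At an unadjusted p under 0.05 that paired fit gave 2 genes at morula (Ndufab1 and Ndufv2), 2 at early blastocyst (Ndufa8 and Ndufs4) and 12 at late blastocyst, of which 11 were lower and Cox6b2 higher, against 6.17%, 4.57% and 6.48% of all features. In the mean it gave 3 (Cox6b2, Ndufa9 and Ndufab1), against 8.52%.

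At late blastocyst the signs were uneven. Of the 85 genes 75 were lower with the Tdgf1 siRNA, with a median of -0.10, against 4978 of all 10751 features and a median of 0.02. In 36 genes both Tdgf1 siRNA libraries lay under both control libraries and in 3 above, Cox6b2, Cox7a2l and Ndufaf2 (13.9% and 18.0% of all features). The summed level was 24750.4 and 27239 CPM with the Tdgf1 siRNA and 27639 and 29785 CPM with the control, that is 90.5% of control on the means, and the groups did not overlap. At morula and early blastocyst the summed levels were 100.2% and 100.1% of control and overlapped. At morula 13 genes stood clear above control and 11 clear below (15.5% and 12% of all features), and at early blastocyst 13 and 2, Ndufa8 and Ndufaf7 (9.38% and 10%).

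The late blastocyst pattern moved with single libraries. Without Tdgf1 siRNA 1, 55 of 86 genes were lower (median -0.08), and without control 2 it was 58 of 85 (median -0.06). Without Tdgf1 siRNA 2 it was 77 of 86 (-0.18) and without control 1 it was 74 of 86 (-0.19). On the first principal component the late blastocysts stood at 46.9 and 56.5 with the Tdgf1 siRNA and at 60.5 and 56.9 in control, and the part of that position in the difference was not tested. The lineage lists differed in the same libraries: the trophectoderm genes summed to 5011 to 5624 CPM in Tdgf1 siRNA late blastocysts and 6273 to 7274 CPM in controls, the primitive endoderm genes to 82.6 to 116 and 125 to 134 CPM, and the epiblast genes to 257 to 274 and 205 to 219 CPM. The sums did not overlap in any of the 3 lists. Within the trophectoderm list the log2 changes were -0.32 for Krt8 and -0.44 for Krt18 but 0.33 for Cdx2 and 0.04 for Gata3, while all 3 primitive endoderm genes were lower and all 3 epiblast genes higher. No gene of these lists passed the adjusted threshold in limma, and the part of cell composition was not tested. By complex, the late blastocyst medians were -0.10 for I, -0.27 for II, -0.17 for III, -0.04 for IV and -0.11 for V.

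The single genes with the smallest p-values were as follows. Cox6b2 stood at 19.0 and 19.4 CPM in the Tdgf1 siRNA late blastocysts and 7.06 and 13.3 CPM in the controls (log2 change 0.77, SE 0.26, unadjusted p = 0.0118 in limma), and Ndufs1 at 117 and 133 against 171 and 158 CPM (log2 change -0.39, SE 0.17, unadjusted p = 0.0341 in limma). Without overlap, Cox6b2 was the higher and Ndufs1 the lower. At morula Ndufv2 stood at 158 and 169 against 194 and 214 CPM (log2 change -0.31, SE 0.14, unadjusted p = 0.0384 in limma) and Ndufab1 at 72.2 and 91.2 against 97.9 and 105 CPM (log2 change -0.31, SE 0.16, unadjusted p = 0.0692 in limma). At early blastocyst Ndufa8 stood at 148 and 145 against 182 and 175 CPM (log2 change -0.28, SE 0.13, unadjusted p = 0.0586 in limma) and Ndufa2, an accessory gene of complex I, at 119 and 89.5 against 89.7 and 83.4 CPM (log2 change 0.25, SE 0.16, unadjusted p = 0.149 in limma). Ndufv2, Ndufab1 and Ndufa8 lay lower without overlap, and the groups overlapped in Ndufa2. None of these 6 differences passed the adjusted threshold in limma.

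**Figure D5:**
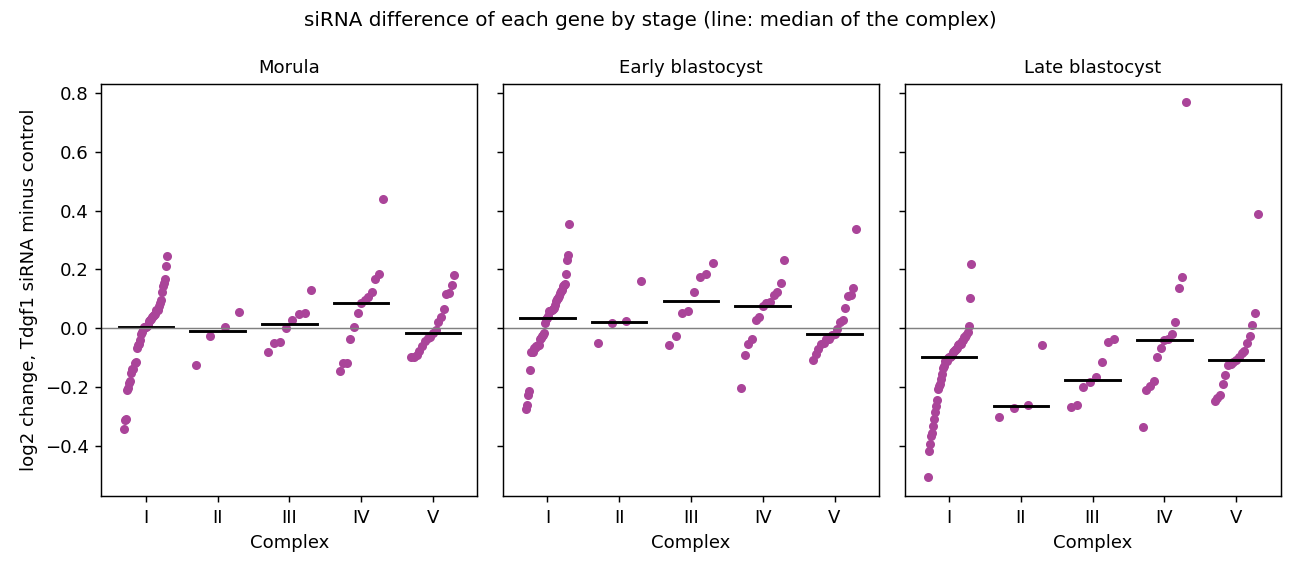
Log2 change of each of the 85 genes (points) with the Tdgf1 siRNA relative to control at morula, early blastocyst and late blastocyst (panels), by complex (x axis); bars are medians of the complex. Points scatter around 0 at morula and early blastocyst, and at late blastocyst 75 of 85 lie under 0, with Cox6b2 the highest at 0.77.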

How the data were processed

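The 12 libraries are RNA-seq of whole mouse embryos, one column each in a single table. Per the submitters' processing notes, HISAT2 2.1.0, Cufflinks, HTSeq and edgeR were used with the build mm10, in roles not given in the sources used here, and the strand setting is not stated. Per the file headers the deposited values are RPKM, but they proved to be CPM divided by 3.582: every column has the same sum, and 100.0% of the values are whole multiples of 1 read within a tolerance of 0.01 reads, the same step for every gene. The authors' deposited table is therefore used as CPM not divided by length, with whole reads recovered, and the comparisons planned for RPKM were run unchanged on log values.

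Values were taken as log2(value + 1) in the deposited unit, features with a mean under 1 unit were left out, and limma 3.58.1 (R 4.3.3) was fitted to all 12 libraries with 1 mean per group, 6 residual and 7.55 prior degrees of freedom, and Benjamini-Hochberg adjustment over all 10751 features. Stage comparisons average both siRNAs. Precision comes from 10524640 to 13770264 reads per library, so that 3 reads are 0.218 to 0.285 CPM; this floor covers counting error only. Alternatives were a pseudocount of 0.1 or 5, no filter or a mean of 5, TMM or quantile scaling, edgeR 4.0.16 and DESeq2 1.42.0 on the recovered reads, a replicate block, each library left out, both early blastocyst libraries of 1 number left out, and each siRNA alone. Same-numbered libraries deviated together from their group means at morula and early blastocyst (r = 0.46 and 0.59) and hardly at late blastocyst (r = 0.10). The fit with a replicate block takes the numbers as pairing them, from the data and not from a label. The main fit has no block.

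The members and lists were chosen with earlier results of these data known. The genes named are, per complex, the 2 with the highest CPM per kb and the largest changes in either direction from morula to late blastocyst, all Sdh genes, the isoform sets, the genes under the filter, the 2 smallest p-values of each siRNA comparison, and the 2 largest changes of each other list. Further genes were named after their values were seen, to complete a role or a count, as were Nrf1 and Yy1 beside the promoter letters. Lengths, as medians over a gene's transcripts, and gene coordinates matched 88 genes (not Atp5o and Atp5sl) in a GENCODE annotation of GRCm38, and sequences are from RefSeq. Mitochondrially encoded genes were left out, being listed at 0. The values of 1 gene are not reported here by name, and it is left out of the heat map but stays in the counts and sums.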

Additional observations from a re-analysis of the deposited data

How the results depend on the processing

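With each of the 12 libraries left out in turn, 30 to 37 genes were called at the first step, 56 to 67 at the second and 72 to 77 over the whole span. Of the calls made with all libraries, 29 of 36, 53 of 67 and 70 of 76 stood in every such fit. Tdgf1 siRNA embryos alone gave 22 calls at the first step and 37 at the second and control embryos alone 24 and 57, each with 2 libraries per stage. The median second-step change was 0.41 in the former and 0.62 in the latter, and the test of a siRNA effect that differs between stages called 0 genes. The calls higher and lower were 31 and 4, 56 and 2, and 65 and 3 with TMM for the first step, the second step and the whole span, 30 and 4, 55 and 2, and 65 and 3 with edgeR, 30 and 5, 58 and 2, and 65 and 4 with DESeq2, and 31 and 2, 68 and 3, and 72 and 3 with quantile normalization. These counts, and those with 1 library left out, are given without the shares of all features called in the same fits. Whole-span medians of these genes and of all features were 0.71 and 0.01 with TMM and 0.73 and 0.002 with edgeR. They were 0.71 and -0.01 with DESeq2 and 0.88 and -0.07 with quantile normalization. A tally was made for the members picked by the rules given above, without those named after their values were seen. It covers whole-span and siRNA changes, step changes not included. In it 816 values under an alternative kept their side of the threshold, 23 lost it and 1 gained it, and 0 reversed. Step changes moved more. The first-step sign turned in 6 genes each with TMM and edgeR, 7 with quantile normalization and 8 with DESeq2, all uncalled in the main fit. First-step calls lost were 4 each with TMM and quantile normalization and 5 each with edgeR and DESeq2. At the second step 10 were lost with TMM, 11 with edgeR, 8 with DESeq2 and 1 with quantile normalization. Outside the tally, TMM scaling ended the whole-span calls of Atp5j, Atp5sl, Ndufa12, Ndufaf6, Ndufs8 and Uqcrh and called Atp5s lower. The uncalled whole-span change of Uqcrb had the other sign with DESeq2. In the paired fit with a replicate block 0 genes were called for the siRNA at any stage or in the mean, as without it, but genes at an unadjusted p under 0.05 went from 1, 0 and 3 to 2, 2 and 12 at the 3 stages. The siRNA counts of called genes stayed at 0 under each alternative run.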
